A study of Mus musculus with 18 samples.

Results

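The genes examined were 46 genes of the G2 phase, mitosis and cytokinesis, among them the mitotic cyclins and Cdk1, the transcription factors Foxm1 and Mybl2, the spindle checkpoint, the chromosomal passenger complex, the kinetochore, the spindle motors and the cytokinesis machinery. They were taken by gene symbol, and all 46 had counts among the 32765 symbols of the table. Of these, 40 passed the filter on low counts and were tested together with all other genes, 12383 in all. Ttk, Cenpa, Nuf2, Ube2c, Espl1 and Tpx2 were not tested, with 1 to 51 counts each over 16 libraries.

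RNA sequencing was done on 18 cultures of PyMT-BO1, a mouse breast cancer line of luminal B-like type on the C57BL/6 background, and integrin β3 had been knocked out in every culture, controls included. A retrovirus had then given the knockout cells an empty vector (pMx), a signaling-deficient mutant integrin β3 (Δβ3) or functional human integrin β3 (hβ3). Cells of each line received DMSO or 10 nM docetaxel over 24 h, with 3 cultures in each of the 6 groups. There was 1 line per construct, so the construct and other differences between the lines cannot be told apart, and p-values measure the spread between cultures of the same line.

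Libraries held 7972612 to 18961392 counts. Of 11 luminal markers, Krt8 and Krt18 were high in the 16 libraries used, with means of 1541 and 1141 CPM. Cdh1 was at 1.27 CPM, Krt19, Epcam, Cldn3, Cldn4, Cldn7 and Esr1 were at 0.0033 to 0.0768 CPM, and Elf3 and Gata3 were at 0, so most of the list was at or near 0. Docetaxel culture 2 and DMSO culture 1 of the Δβ3 line stood apart. Heart muscle markers, 22 genes, summed to 37490 and 3879 CPM there (counts scaled per library size), against 170.1 to 2961 in the other 16 libraries. The ribosomal precursor transcript Rn45s took 23.6% and 41.5% of their counts, against 6.59% to 33.0% in the other 16, so it does not separate the first of them from the rest. The median ratio of the mitotic genes to the other cultures of the group was 0.501 and 0.734. These 2 were left out because earlier results of these data showed heart muscle transcripts and low levels of tumour-cell transcripts there, so the choice was not independent of the levels of the mitotic genes. Tests used 16 libraries, with 2 cultures in each Δβ3 group. The choice matters, since the number of mitotic genes called was 18 with 16 libraries and 10 with all 18 in the mean docetaxel response, and 14 and 1 in pMx. Calls over all genes fell too in the mean response. They were 1949 higher and 1768 lower with 16 libraries, and 956 and 930 with all 18. Counts assigned to Itgb3, the mouse integrin β3 gene, were at 0.368 to 1.45 CPM in pMx and at 71.4 to 125 CPM in the rescued lines among the 16 libraries. The hβ3 construct is human, so these counts do not show that the mouse gene was expressed there. They are not compared between hβ3 and Δβ3.

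Docetaxel is a taxane that binds and stabilises microtubules, and cells that enter mitosis in its presence can be held there by the spindle checkpoint. Transcripts of G2/M genes build up through S phase and G2. B-Myb, the product of Mybl2, acts with the MuvB complex and then with FoxM1 on promoters that carry a CHR element, often beside CCAAT boxes bound by NF-Y, and in resting cells or downstream of p53 and p21 the related DREAM complex represses the same promoters.

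Promoters of these genes carried the CHR and CCAAT letters more often than promoters at large. RefSeq windows of 300 bases, 250 before and 50 after the start (GRCm38.p6), were matched for 37 of the 46 genes, in 39 windows. Foxm1, Ccna2, Kif20a, Incenp, Cdc25c, Pbk, Tpx2, Aurkb and Spc24 had no entry in the table. A CHR-type motif, either TTTGAA or, with 1 letter changed, TTCGAA, on either strand, was in 71.8% of the 39 windows and in 19.2% of all 32851 windows. CCAAT on either strand was in 74.4% of them and in 37.4% of all windows. Both kinds were in 64.1% and 7.52%. Cdk1, Top2a, Ccnb2 and Bub1b are shown because they had the smallest p in the mean docetaxel response among genes with both motifs in the stretch before any annotated start. Capitals mark CHR-type motifs and CCAAT boxes on either strand, and each stretch is printed 5′ to 3′ along the gene's strand.
Cdk1, chr10:69352939-69353162, minus strand: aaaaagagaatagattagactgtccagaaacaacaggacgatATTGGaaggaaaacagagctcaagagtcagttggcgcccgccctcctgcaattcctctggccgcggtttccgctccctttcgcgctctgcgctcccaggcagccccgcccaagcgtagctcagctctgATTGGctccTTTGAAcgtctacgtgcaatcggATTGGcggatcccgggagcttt
Top2a, chr11:99024200-99024439, minus strand: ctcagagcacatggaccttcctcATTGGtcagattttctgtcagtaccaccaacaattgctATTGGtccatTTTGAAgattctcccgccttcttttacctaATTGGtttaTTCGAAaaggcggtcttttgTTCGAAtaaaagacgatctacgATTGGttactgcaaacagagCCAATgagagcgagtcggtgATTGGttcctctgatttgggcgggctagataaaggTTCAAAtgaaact
Ccnb2, chr9:70421555-70421804, minus strand: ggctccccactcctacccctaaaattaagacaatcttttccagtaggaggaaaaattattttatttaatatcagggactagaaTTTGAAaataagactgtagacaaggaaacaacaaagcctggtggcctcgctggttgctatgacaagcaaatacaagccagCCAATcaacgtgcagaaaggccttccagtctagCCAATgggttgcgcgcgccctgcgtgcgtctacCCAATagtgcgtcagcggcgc
Bub1b, chr2:118597961-118598201, plus strand: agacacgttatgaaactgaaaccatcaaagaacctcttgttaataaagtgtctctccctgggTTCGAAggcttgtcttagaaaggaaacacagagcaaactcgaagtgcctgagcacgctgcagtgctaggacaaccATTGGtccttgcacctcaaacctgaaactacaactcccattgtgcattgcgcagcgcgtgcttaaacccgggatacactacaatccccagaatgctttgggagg

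The Top2a stretch held 4 CHR-type motifs and 6 CCAAT boxes, that of Cdk1 held 1 and 3, that of Ccnb2 1 and 3, and that of Bub1b 1 and 1. These 4 genes did not change alike. Cdk1 and Top2a fell with docetaxel, Bub1b fell by a small amount and Ccnb2 rose. Among all matched genes, 22 with a CHR-type motif were tested, of which 5 fell and 2 rose in the mean response, with a median log2 change of -0.10, where 14.3% of all tested genes fell and 15.7% rose. Without the motif, 10 were tested, of which 4 fell and 1 rose, with a median of -0.15. Genes that fell were found with and without the motif in this window. Of the genes with no entry, 8 were tested, 6 fell and 0 rose, with a median of -0.40. Their motifs are not known, so the comparison by motif leaves them out. The groups were not matched for count level.

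**Figure D1:**
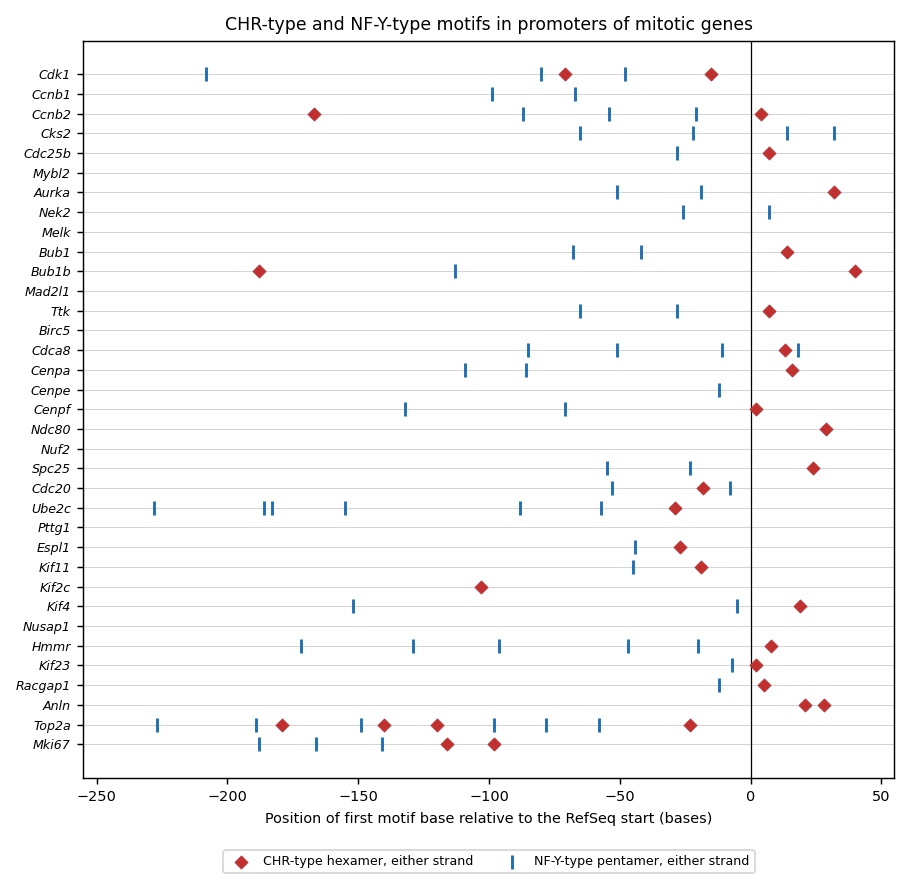
Positions of CHR-type motifs (red diamonds) and CCAAT boxes, labelled NF-Y-type (blue bars), in the promoter windows of the genes with a single RefSeq window, in bases from the annotated start (0). CCAAT boxes lie mostly before the start, where 250 of the 300 bases of the window are. Many CHR-type motifs lie within 50 bases of the start on either side. Positions were not compared with those in all promoters.

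Docetaxel lowered the transcripts of many of these genes, with Mybl2 falling the most. In the mean over the 3 lines, 15 of 40 tested genes fell and 3 rose (edgeR quasi-likelihood test, Benjamini-Hochberg adjusted over 12383 genes). Over all tested genes 14.3% fell and 15.7% rose, 30% in either direction. The median log2 change was -0.11 over the 40 genes and 0.02 over all genes. The genes that fell were Mybl2, Spc24, Aurkb, Pbk, Melk, Incenp, Cdk1, Ccna2, Birc5, Foxm1, Mad2l1, Cdca8, Top2a, Mki67 and Bub1b, and Ccnb2, Cenpe and Cenpf rose by small amounts. Bulk RNA cannot tell fewer cells in G2 and mitosis apart from less of these transcripts per cell. With all 18 libraries edgeR called 10 genes lower, each of them among the 15, and 0 higher, and 15 had an unadjusted p under 0.05. Ccnb2, Cenpe, Cenpf, Mad2l1, Cdca8, Top2a, Mki67 and Bub1b then lost their call. Over all genes, 930 were called lower and 956 higher with all 18 libraries, against 1768 and 1949 with 16.

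Among these genes the calls went with the count level. Over all tested genes 30% were called in the mean response, and shares by count level or number of models were not computed. Of 28 tested genes with a mean of at least 5 CPM, 18 were called, and of 12 below it edgeR called 0 in the mean response. Of the 14 genes with a single transcript model in the table, 11 were called, and their median total was 77248.5 counts over 16 libraries. Of the 32 genes with several models, 26 were tested and 7 called, and the median total was 519.5 counts. How reads that fit several models were counted is not known, so low counts of these genes may not mean low expression, and levels are not compared between genes.

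**Figure D2:**
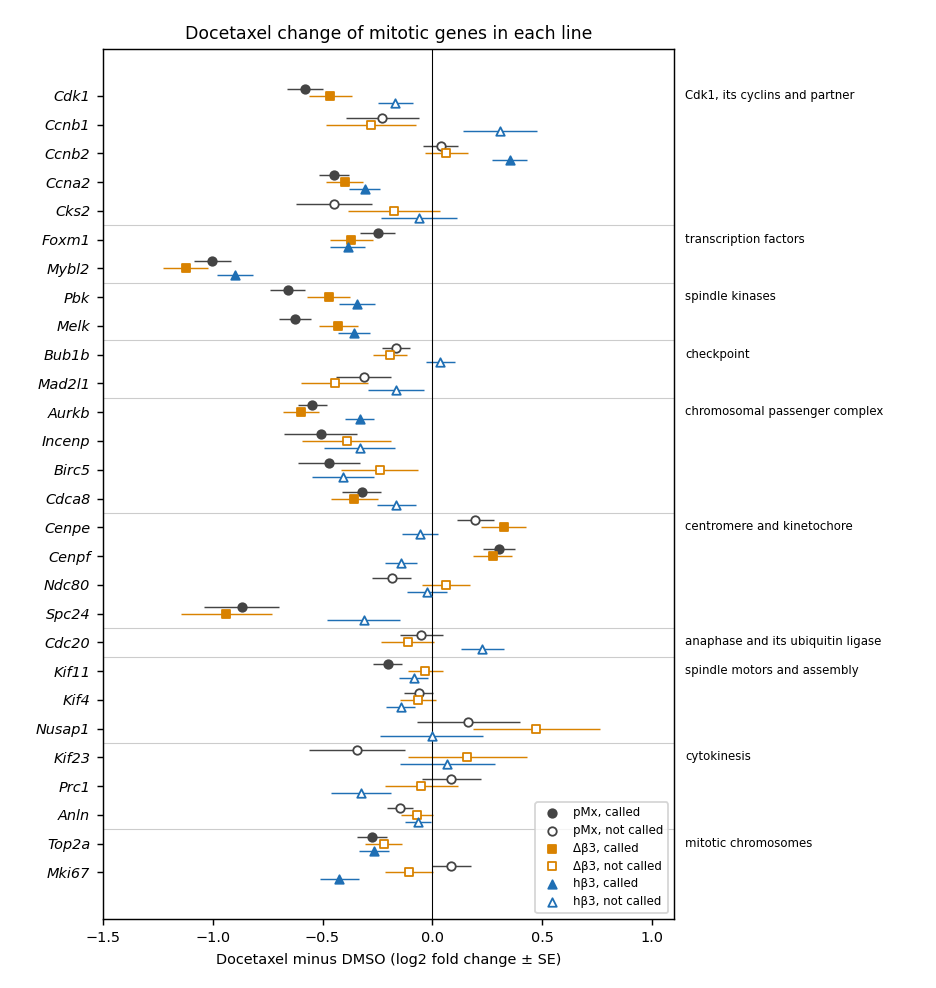
Docetaxel minus DMSO as log2 fold change with its standard error in pMx (circles), Δβ3 (squares) and hβ3 (triangles) for the 28 genes with a mean of at least 5 CPM, grouped by role. Filled symbols passed an adjusted p under 0.05. Mybl2 lies near -1 in each line, and most genes of the cytokinesis and spindle motor groups lie near 0.

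The transcription factors of the G2/M programme fell in every line. Mybl2 spans chr2:163054687-163084688 and Foxm1 chr6:128362967-128376146, both on the plus strand of mm10. Mybl2, whose product B-Myb activates the programme in S phase, went from 63.0, 65.4 and 68.4 CPM in DMSO to 31.7, 30.9 and 35.3 CPM in docetaxel in pMx, from 65.2 and 69.9 to 32.0 and 29.9 in Δβ3 and from 107, 121 and 114 to 60.9, 61.3 and 61.9 in hβ3. Docetaxel cultures lay below the DMSO cultures of their line without overlap, and the hβ3 cultures in docetaxel lay just below the pMx cultures in DMSO. The log2 change was -1.003 ± 0.08 in pMx, -1.12 ± 0.10 in Δβ3 and -0.90 ± 0.08 in hβ3, with adjusted p of 4.4e-09, 6.03e-08 and 3.11e-08 by edgeR's quasi-likelihood test. Mybl2 kept its call in each line when any 1 of the 16 libraries was left out and with all 18 libraries, the only one of the 40 genes to hold in pMx and hβ3 there.

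Foxm1, the transcription factor that drives late G2 genes, fell by smaller amounts. It went from 384, 393 and 439.8 CPM in DMSO to 356, 328 and 339 CPM in docetaxel in pMx, from 432 and 422 to 339 and 323 in Δβ3 and from 536, 555 and 671 to 472, 408 and 468 in hβ3. The DMSO and docetaxel ranges did not overlap in any line. The mean log2 change was -0.33 ± 0.05 (adjusted p = 1.1e-05), and -0.25 ± 0.08, -0.37 ± 0.10 and -0.39 ± 0.08 in pMx, Δβ3 and hβ3. Its call in pMx was lost without DMSO culture 2 or 3 or docetaxel culture 2 or 3, with adjusted p up to 0.154. In Δβ3 it was lost without any 1 of the 4 Δβ3 cultures, with adjusted p up to 0.132.

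Cdk1, the mitotic kinase, and Ccna2, which encodes cyclin A2, fell, while neither B-type cyclin was called lower. Cdk1 went from 475, 536 and 548 CPM in DMSO to 317, 386 and 339.9 CPM in docetaxel in pMx, from 611 and 512 to 409.9 and 404 in Δβ3 and from 486, 478 and 430.5 to 414, 424 and 401 in hβ3. Ccna2 went from 561, 585 and 548 CPM in DMSO to 429, 414 and 399 CPM in docetaxel in pMx, from 585 and 561 to 445 and 424 in Δβ3 and from 579.9, 697 and 591 to 511, 515 and 483 in hβ3. Ranges did not overlap in any line for either gene. The mean log2 change was -0.40 ± 0.05 for Cdk1 (adjusted p = 6.37e-07) and -0.39 ± 0.04 for Ccna2 (adjusted p = 1.42e-07). In hβ3 the change of Cdk1 was -0.17 ± 0.08 and did not pass (adjusted p = 0.193), and in Δβ3 its call was lost without DMSO culture 2 (adjusted p = 0.105).

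Ccnb1 and Ccnb2 encode the cyclins that activate Cdk1 at the entry to mitosis. Ccnb2 went from 183, 176 and 185 CPM in DMSO to 161, 205 and 193 CPM in docetaxel in pMx, from 205 and 188 to 211 and 199 in Δβ3 and from 162, 174 and 154 to 212, 208 and 205 in hβ3. The groups overlapped in pMx and Δβ3 and were apart in hβ3, where it rose by 0.35 ± 0.08 on the log2 scale (adjusted p = 0.00316). Its mean change of 0.15 ± 0.05 (adjusted p = 0.0206) was lost without pMx docetaxel culture 2, Δβ3 DMSO culture 3, Δβ3 docetaxel culture 1 or hβ3 docetaxel culture 2, with adjusted p up to 0.0888. Ccnb1 went from 10.1, 9.87 and 13.4 CPM in DMSO to 8.48, 9.68 and 10.2 CPM in docetaxel in pMx, from 11.2 and 10.99 to 10.98 and 7.11 in Δβ3 and from 8.71, 7.81 and 7.57 to 9.89, 10.4 and 9.57 in hβ3. The treatments overlapped in pMx, and docetaxel cultures were higher in hβ3. In Δβ3 they were lower, but 1 of them, at 10.98 CPM, lay only just below a DMSO culture at 10.99 CPM. The Ccnb1 mean change was -0.07 ± 0.10 (95% interval -0.27 to 0.14, adjusted p = 0.697) and no line passed the test. Cks2, a small Cdk-binding subunit, had a mean change of -0.23 ± 0.11 (adjusted p = 0.121). The phosphatase genes Cdc25b and Cdc25c, which activate Cdk1, had low counts, at 0.536 to 1.95 CPM in any library, and neither passed.

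**Figure D3:**
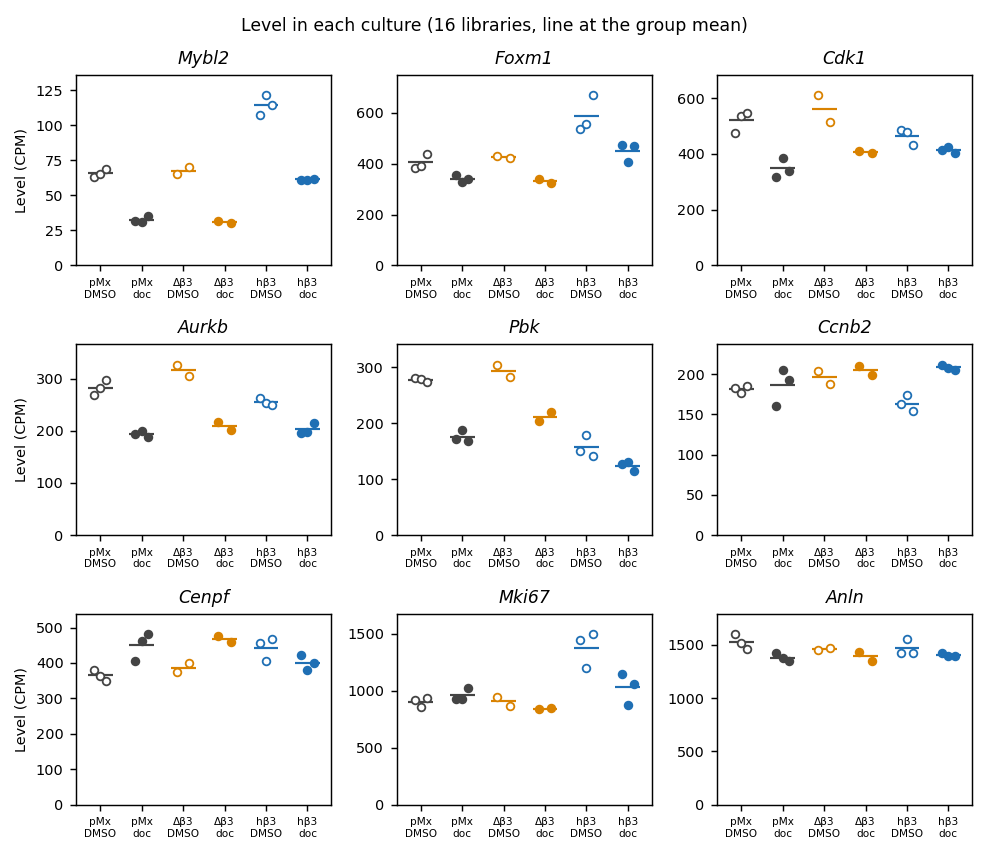
Level in CPM of 9 genes in each of 16 cultures, with open circles for DMSO, filled circles for docetaxel and a line at the group mean, on axes that start at 0. Mybl2, Foxm1, Cdk1, Aurkb and Pbk are lower in docetaxel in each line, Cenpf is higher in docetaxel in pMx and Δβ3 only, and Mki67 is lower in docetaxel in hβ3 and overlaps between treatments in pMx.

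Pbk and Melk, which encode mitotic protein kinases, fell in every line. Pbk went from 281, 279 and 274 CPM in DMSO to 171, 188 and 169 CPM in docetaxel in pMx, from 305 and 283 to 205 and 219.5 in Δβ3 and from 150.1, 179 and 142 to 126, 131 and 115 in hβ3. Melk went from 109, 100.4 and 101 CPM in DMSO to 69.4, 65.6 and 66.0 CPM in docetaxel in pMx, from 109 and 102 to 77.4 and 79.3 in Δβ3 and from 95.4, 101 and 98.4 to 75.2, 76.4 and 79.2 in hβ3. No DMSO range overlapped its docetaxel range. The mean log2 change was -0.49 ± 0.05 for Pbk (adjusted p = 3.29e-08) and -0.47 ± 0.05 for Melk (adjusted p = 1.32e-08). Both kept their calls in pMx and hβ3 when any 1 of the 16 libraries was left out, with adjusted p up to 0.0469 for Pbk in hβ3. Over all settings the Δβ3 change ran from -0.58 to -0.25 for Pbk and from -0.57 to -0.33 for Melk. With all 18 libraries neither gene kept its call in any single line. With 17, Δβ3 docetaxel culture 2 left out, both lost the call in Δβ3, and Pbk also that in hβ3. Aurka, the spindle pole kinase, and Nek2, a centrosome kinase, had 0.223 to 3.01 CPM in any library and mean changes of -0.11 ± 0.35 and 0.02 ± 0.17.

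All 4 genes of the chromosomal passenger complex, which corrects chromosome attachment and then acts in cytokinesis, fell in the mean response. Aurkb, its kinase, went from 269, 282 and 297 CPM in DMSO to 193, 199 and 189 CPM in docetaxel in pMx, from 327 and 305 to 216 and 201 in Δβ3 and from 263, 253 and 249 to 195, 198 and 215 in hβ3. Cdca8, which encodes borealin, went from 124, 148 and 143 CPM in DMSO to 94.0, 119.9 and 118 CPM in docetaxel in pMx, from 162 and 149.7 to 127 and 117 in Δβ3 and from 151, 151 and 161 to 137, 143 and 134 in hβ3. Birc5, which encodes survivin, went from 17.4, 19.3 and 23.6 CPM in DMSO to 12.9, 14.5 and 15.8 CPM in docetaxel in pMx, from 13.3 and 16.1 to 11.1 and 13.9 in Δβ3 and from 16.1, 18.5 and 19.1 to 13.2, 14.0 and 13.4 in hβ3. Aurkb was lower in every docetaxel culture than in any DMSO culture of its line, Cdca8 likewise, and Birc5 overlapped between treatments in Δβ3.

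The mean log2 change was -0.49 ± 0.04 for Aurkb (adjusted p = 1.31e-09), -0.37 ± 0.09 for Birc5 (adjusted p = 0.00188) and -0.28 ± 0.05 for Cdca8 (adjusted p = 0.000257). Incenp, the scaffold of the complex, changed by -0.41 ± 0.10 (adjusted p = 0.00315). Their calls in the mean response held when any 1 of 16 libraries was left out. Aurkb also fell in each line, by 0.55, 0.60 and 0.33 in pMx, Δβ3 and hβ3 on the log2 scale. With all 18 libraries its estimate in Δβ3 was -1.04 instead, while that of Cdca8 in the mean response no longer passed (adjusted p = 0.0924).

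Of 4 checkpoint genes 3 were tested, and 2 of them, Mad2l1 and Bub1b, fell in the mean response, while edgeR called 0 within any single line (2 at an unadjusted p under 0.05 in pMx, 2 in Δβ3 and 0 in hβ3). DESeq2 called 1 in Δβ3, Mad2l1, as did the replicate block and the fit without the filter. Mad2l1, which encodes the Mad2 protein that inhibits the anaphase ligase, went from 36.8, 28.5 and 31.7 CPM in DMSO to 29.6, 25.5 and 23.2 CPM in docetaxel in pMx, from 37.2 and 34.0 to 26.9 and 25.4 in Δβ3 and from 28.2, 22.7 and 31.9 to 24.0, 25.5 and 24.2 in hβ3. Bub1b, which encodes the checkpoint protein BubR1, went from 321, 359 and 333 CPM in DMSO to 290.2, 312 and 301 CPM in docetaxel in pMx, from 339 and 358 to 311 and 298 in Δβ3 and from 276, 261 and 261 to 269, 285 and 264 in hβ3. Treatments were apart for Mad2l1 in Δβ3 only, and for Bub1b in pMx and Δβ3. The mean log2 change was -0.31 ± 0.08 for Mad2l1 (adjusted p = 0.00361) and -0.11 ± 0.04 for Bub1b (adjusted p = 0.0467). The Bub1b call was lost without any 1 of 11 libraries, and held without pMx DMSO culture 1, pMx docetaxel culture 2, hβ3 DMSO culture 2 or 3, or hβ3 docetaxel culture 2, with adjusted p up to 0.129. Bub1, a checkpoint kinase with 0.94 to 2.21 CPM, did not pass.

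At the kinetochore, Spc24 fell while Cenpe and Cenpf rose. Spc24, a subunit of the Ndc80 complex that grips microtubules, went from 27.8, 34.7 and 34.0 CPM in DMSO to 11.3, 22.6 and 18.6 CPM in docetaxel in pMx, from 40.7 and 37.4 to 22.1 and 18.6 in Δβ3 and from 31.1, 34.4 and 33.7 to 23.0, 28.2 and 28.7 in hβ3. The treatments did not overlap in any line, and the mean log2 change was -0.71 ± 0.11 (adjusted p = 3.08e-05). It was -0.87 ± 0.17 in pMx, -0.94 ± 0.21 in Δβ3 and -0.31 ± 0.17 in hβ3, where it did not pass (adjusted p = 0.271). The Δβ3 call was lost without DMSO culture 2 or docetaxel culture 3 of that line, with adjusted p up to 0.0832, and the Δβ3 estimate was -1.44 with all 18 libraries. Ndc80 of the same complex had a mean change of -0.05 ± 0.06 (95% interval -0.16 to 0.06), and Spc25 had 0.8 to 2.46 CPM and did not pass.

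Cenpf, a large outer kinetochore protein, went from 381, 363 and 350.3 CPM in DMSO to 406, 463 and 482 CPM in docetaxel in pMx, from 375 and 399 to 477 and 458 in Δβ3 and from 455, 406 and 468 to 422, 381 and 400.4 in hβ3. Cenpe, a kinetochore motor, went from 462, 441 and 408 CPM in DMSO to 434, 538 and 530.1 CPM in docetaxel in pMx, from 369 and 453 to 536 and 494 in Δβ3 and from 585, 571 and 643 to 591, 568 and 571 in hβ3. Docetaxel cultures were higher without overlap in pMx and Δβ3 for Cenpf and in Δβ3 for Cenpe, and overlapped DMSO in hβ3 for both. The mean log2 change was 0.14 ± 0.05 for Cenpf (adjusted p = 0.017) and 0.15 ± 0.05 for Cenpe (adjusted p = 0.0267). The Cenpf call was lost without Δβ3 DMSO culture 2 or Δβ3 docetaxel culture 1, with adjusted p up to 0.0721. The Cenpe call was lost without any 1 of 8 libraries, with adjusted p up to 0.173. These were pMx DMSO culture 3, pMx docetaxel cultures 2 and 3, Δβ3 DMSO culture 2, Δβ3 docetaxel culture 1, hβ3 DMSO culture 1 and hβ3 docetaxel cultures 1 and 2.

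Genes of the spindle motors, of anaphase and of cytokinesis gave 0 calls in the mean response. Kif11, the motor that pushes spindle poles apart, came closest, at -0.11 ± 0.04 (adjusted p = 0.0507), and it passed with DESeq2, with relative log expression size factors, without the filter and with the replicate block. Anln, a cleavage furrow scaffold, went from 1600.4, 1516 and 1462 CPM in DMSO to 1419, 1372 and 1345 CPM in docetaxel in pMx, from 1452 and 1470.5 to 1435 and 1348 in Δβ3 and from 1419, 1557 and 1421 to 1421, 1393 and 1391 in hβ3. Its mean change was -0.09 ± 0.04 (95% interval -0.17 to -0.02, adjusted p = 0.0586), and it passed with the replicate block. Kif4, a chromosome-bound motor, was at -0.09 ± 0.04 (adjusted p = 0.108). Cdc20, the activator of the anaphase ligase, was at 0.02 ± 0.06, with a 95% interval of -0.10 to 0.14. Prc1, which bundles midzone microtubules, was at -0.10 ± 0.08, and Kif23, a midzone motor, at -0.04 ± 0.14. The other tested genes of these groups, Pttg1, Kif2c, Nusap1, Hmmr, Kif20a, Ect2 and Racgap1, had mean levels of 0.946 to 5.12 CPM and standard errors of 0.15 to 0.34.

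Of the chromosome genes, Top2a passed the test in pMx and hβ3, and Mki67 in hβ3. Top2a, the topoisomerase that untangles sister chromatids, went from 748, 689 and 617 CPM in DMSO to 598, 557 and 541 CPM in docetaxel in pMx, from 652 and 658 to 581 and 542 in Δβ3 and from 605, 590.3 and 612 to 508, 508 and 485 in hβ3. Treatments did not overlap in any line, and the mean log2 change was -0.26 ± 0.04 (adjusted p = 4e-05). Mki67, which encodes the Ki-67 protein that coats mitotic chromosomes, went from 918, 856 and 938 CPM in DMSO to 927, 929 and 1024 CPM in docetaxel in pMx, from 948 and 864 to 837 and 849 in Δβ3 and from 1441, 1195 and 1496 to 1149, 878 and 1055 in hβ3. It was lower in docetaxel without overlap in Δβ3 and hβ3 and overlapped in pMx. Its change passed in hβ3, at -0.42 ± 0.09 (adjusted p = 0.0023). The mean change of -0.15 ± 0.06 (adjusted p = 0.0496) was lost without any 1 of 11 libraries, with adjusted p up to 0.159, and held only without pMx DMSO culture 2, pMx docetaxel culture 3, Δβ3 DMSO culture 3, hβ3 DMSO culture 2 or hβ3 docetaxel culture 1.

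**Figure D4:**
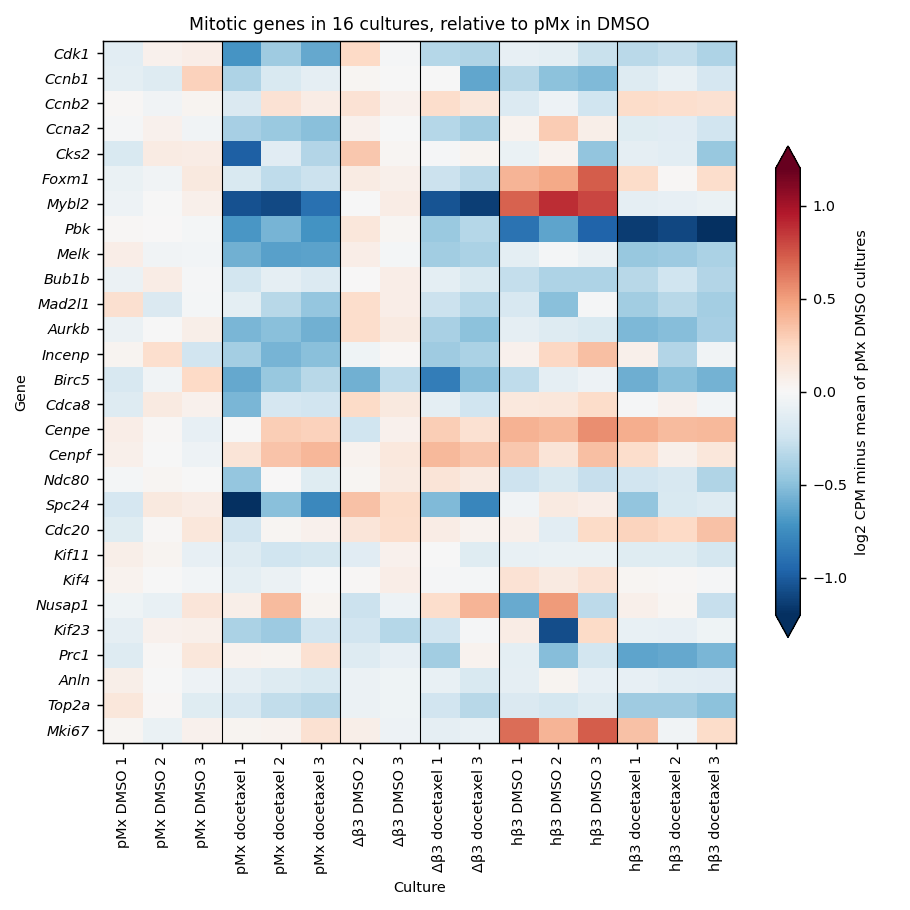
Log2 CPM of each of the 28 genes with a mean of at least 5 CPM in each of 16 cultures, minus the mean of the pMx DMSO cultures, with blue lower and red higher. The color scale ends at -1.2 and 1.2. Melk, Aurkb and Pbk are blue in docetaxel cultures of each line, and Pbk also in the hβ3 DMSO cultures. Mybl2 and Spc24 are blue in docetaxel in pMx and Δβ3. In hβ3 docetaxel cultures Mybl2 is near white, at -0.11 to -0.083, and Spc24 is at -0.47 to -0.16. Mybl2, Foxm1 and Mki67 are red in the hβ3 DMSO cultures.

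Within single lines, 13 genes fell and 1 rose in pMx, against 11% lower and 10.2% higher over all genes. In Δβ3, 9 fell and 2 rose, against 5.27% and 5.98%. Both rises, Cenpe and Cenpf, were lost with the replicate block (10 lower, 0 higher) and with relative log expression size factors (9 lower, 0 higher), and that of Cenpf without the filter. The block also ended the call of Cdca8 and added Mad2l1 and Top2a. In hβ3, 8 fell and 1 rose, against 5.16% and 7.27%. Ccna2, Foxm1, Mybl2, Pbk, Melk and Aurkb, 6 genes, were called lower in all 3 lines, and 18 of 40 had a negative estimate in all 3. Ccnb2, Pttg1 and Hmmr had a positive estimate in all 3. The share of all genes with such calls or signs in all 3 lines was not computed, so these counts have no background. With all 18 libraries the calls were 1 in pMx, 3 in Δβ3 and 1 in hβ3, and 7, 11 and 5 genes had an unadjusted p under 0.05. Several of these calls rested on single cultures. In pMx, Incenp and Kif11 lost theirs without DMSO culture 1 or 2 or docetaxel culture 2 or 3, Birc5 without DMSO culture 3 or docetaxel culture 1, and Cdca8 without DMSO culture 2 or docetaxel culture 1. In Δβ3, Cdca8 lost its call without any 1 of the 4 Δβ3 cultures, and Cenpe without any 1 of 8 libraries (pMx DMSO culture 2, Δβ3 DMSO culture 2, Δβ3 docetaxel cultures 1 and 3, hβ3 DMSO culture 1 and the 3 hβ3 docetaxel cultures). Cenpf kept its Δβ3 call only without pMx docetaxel culture 1 or hβ3 DMSO culture 2 or 3, and lost it without any 1 of the other 13. In hβ3, Top2a lost its call without docetaxel culture 3 (adjusted p = 0.0552). The Δβ3 count was 5 without DMSO culture 2, 7 without docetaxel culture 1 and 6 without docetaxel culture 3 of that line.

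Other transcripts moved with docetaxel in the hβ3 line. The luminal sum was 1472 to 2054 CPM in DMSO and 2212 to 2587 CPM in docetaxel, without overlap. The 7 leukocyte markers, with Adgre1 at 0 and Ptprc at 0.0172 CPM on average, summed to 2.64 to 7.79 CPM in DMSO and 9.93 to 13.0 CPM in docetaxel, and in Δβ3 to 5.84 and 5.96 against 10.2 and 10.6 CPM. Rn45s took 10.9% to 33.0% of counts in DMSO and 11.1% to 19.2% in docetaxel in hβ3. With Rn45s and the muscle markers removed before scaling, the same 9 genes were called in hβ3. The part of the luminal and leukocyte markers in the result was not tested.

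The response differed between hβ3 and pMx for 2 genes of 40, against 2.3% of all genes. Both responses were lower in hβ3, against 1.05% of all genes. Cenpf changed by 0.31 in pMx and -0.14 in hβ3, a difference of -0.45 ± 0.10 (adjusted p = 0.0187). Mki67 changed by 0.09 in pMx and -0.42 in hβ3, a difference of -0.51 ± 0.13 (adjusted p = 0.0333). Cdk1 was just outside, with a fall that was smaller in hβ3 by 0.41 ± 0.11 (adjusted p = 0.0538), and it passed with DESeq2, without the filter and with the replicate block. These calls were not stable. Both were lost without pMx DMSO culture 2 or 3, pMx docetaxel culture 3, hβ3 DMSO culture 3 or hβ3 docetaxel culture 2. Mki67 alone was lost without pMx DMSO culture 1, Δβ3 docetaxel culture 1 or 3, hβ3 DMSO culture 1 or hβ3 docetaxel culture 3. Without hβ3 DMSO culture 2 there were 4 calls, Cdk1 and Pbk being added. With all 18 libraries there were 0 calls, and 0 genes had an unadjusted p under 0.05.

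No response difference was called between hβ3 and Δβ3, nor between Δβ3 and pMx. For hβ3 against Δβ3, edgeR called 0 of 40 genes, against 0.606% of all genes, with 11 at an unadjusted p under 0.05. DESeq2 called 1, Cenpf, as did edgeR without the filter and without hβ3 DMSO culture 2. The Cenpf difference was -0.42 ± 0.12 (adjusted p = 0.119). For Δβ3 against pMx, edgeR and DESeq2 both called 0, with 0 genes at an unadjusted p under 0.05, and edgeR called 0% of all genes. Among the 28 genes of at least 5 CPM these differences ran from -0.19 for Mki67 to 0.50 for Kif23. The 95% interval was -0.47 to 0.08 for Mki67 and -0.26 to 0.19 for Cenpf.

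In DMSO the hβ3 line differed from pMx in 10 of 40 genes, near the 26.7% called over all genes. In hβ3, 6 were higher and 4 lower, against 13.2% and 13.5% of all genes. The transcription factors Mybl2 and Foxm1 were higher in hβ3 by 0.80 ± 0.08 (adjusted p = 2.83e-08) and 0.53 ± 0.08 (adjusted p = 1.41e-05) on the log2 scale. Mki67, Cenpe, Cenpf and Ect2, a cytokinesis gene, were higher too, by 0.61, 0.46, 0.28 and 0.94. Pbk was lower, at -0.82 ± 0.08 (adjusted p = 1.63e-08), as were Ccnb1 (-0.47), Bub1b (-0.35) and Top2a (-0.18). The values given above show that no hβ3 culture in DMSO overlapped a pMx culture in DMSO for Mybl2, Foxm1, Mki67 or Pbk. The Ccnb1 call was lost without pMx DMSO culture 3, hβ3 DMSO culture 2 or 3, or hβ3 docetaxel culture 2. The Ect2 call was lost without pMx DMSO culture 2 or 3 or hβ3 DMSO culture 2, where it had 5.32 CPM against 2.36 and 3.38. The Top2a call was lost without any 1 of 14 libraries and held only without pMx DMSO culture 3 or pMx docetaxel culture 1. It was also lost with DESeq2, with relative log expression size factors, without the filter and with the top model per symbol. DESeq2 ended the Ccnb1 call as well, and the top model that of Ect2. Only Mybl2, 1 gene, was called with all 18 libraries.

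Some of the other transcripts moved with this comparison. In DMSO, Rn45s took 10.9% to 33.0% of counts in hβ3 and 8.36% to 9.81% in pMx. The 22 heart muscle markers, with Nppb at 0, summed to 170.1 to 521.1 CPM in hβ3 and 499.1 to 2465 CPM in pMx. With Rn45s and the muscle markers removed before scaling, the count was 11, the same 10 genes and Ndc80. The 11 luminal markers, whose sum is almost all Krt8 and Krt18, summed to 1472 to 2054 CPM in hβ3 and 2517 to 2870 CPM in pMx. The part of the luminal markers in the result was not tested.

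Against Δβ3 in DMSO, hβ3 was higher for 4 genes and lower for 6, against 11.1% and 12.2% of all genes. Taken in either direction, the share was near the 23.2% of all genes. Mybl2 (0.76 ± 0.09, adjusted p = 6.41e-07), Mki67 (0.60 ± 0.10, adjusted p = 8.76e-05), Cenpe and Foxm1 were higher. Pbk (-0.90 ± 0.09, adjusted p = 1.69e-08), Bub1b, Aurkb, Ndc80, Cdk1 and Ccnb2 were lower. Calls of Aurkb, Ndc80, Cdk1 and Ccnb2 were lost without Δβ3 DMSO culture 2. Leaving out hβ3 DMSO culture 3 also ended those of Ndc80, Cdk1 and Ccnb2. Those of Ndc80 and Ccnb2 were lost without hβ3 DMSO culture 1 as well, that of Ndc80 without Δβ3 DMSO culture 3 and that of Ccnb2 without hβ3 docetaxel culture 2. Mybl2 and Mki67, 2 genes, were called with all 18 libraries. Between Δβ3 and pMx in DMSO, 0 genes were called by edgeR or DESeq2, against 0.331% of all genes (0.275% higher, 0.0565% lower). Aurkb and Birc5 were at an unadjusted p under 0.05 there, with log2 differences of 0.16 ± 0.07 and -0.45 ± 0.16. The comparisons of hβ3 with pMx and with Δβ3 share the hβ3 cultures.

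In docetaxel, hβ3 was higher than pMx for 8 genes and lower for 2, against 15.2% and 12.1% of all genes. Taken in either direction, the share was near the 27.3% of all genes. Mybl2 was higher by 0.91 ± 0.08 (adjusted p = 7.66e-09) and Foxm1 by 0.40 ± 0.08 (adjusted p = 0.000521). Spc24, Cdc20, Cdca8, Ccna2, Cdk1 and Melk were higher by 0.59, 0.34, 0.32, 0.28, 0.25 and 0.20. Prc1 was at 20.2, 20.1 and 22.3 CPM in pMx and 12.6, 12.7 and 13.4 CPM in hβ3, a log2 difference of -0.70 ± 0.14 (adjusted p = 0.000353), and Pbk was at -0.51 ± 0.08 (adjusted p = 3.08e-05). Single libraries ended some of these calls. Without pMx docetaxel culture 1 those of Cdk1, Cdca8 and Cdc20 were lost, and without hβ3 docetaxel culture 3 those of Spc24, Cdc20 and Melk. The call of Cdk1 was also lost without pMx docetaxel culture 3 or hβ3 docetaxel culture 1 or 2, that of Spc24 without hβ3 docetaxel culture 2, and that of Melk without any 1 of 9 libraries and with DESeq2. Only Mybl2, 1 gene, was called with all 18 libraries.

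Against Δβ3 in docetaxel, 3 genes were higher in hβ3 and 2 lower, against 9.58% and 10.3% of all genes (19.8% in all). Mybl2 (0.98 ± 0.10, adjusted p = 1.96e-08), Foxm1 (0.44 ± 0.09, adjusted p = 0.000783) and Mki67 (0.29) were higher, and Pbk (-0.77 ± 0.09, adjusted p = 2.99e-07) and Ndc80 (-0.39) were lower. The Mki67 call was lost without any 1 of 12 libraries and held without pMx docetaxel culture 1, hβ3 DMSO culture 2 or 3, or hβ3 docetaxel culture 2. That of Ndc80 was lost without Δβ3 docetaxel culture 1. The count was 9 without pMx docetaxel culture 1, 8 without hβ3 DMSO culture 2 and 2 with all 18 libraries. Between Δβ3 and pMx in docetaxel 0 genes were called by edgeR or DESeq2, against 0.46% of all genes (0.38% higher, 0.0808% lower), with 5 at an unadjusted p under 0.05. These were Pbk, Cdk1, Melk, Ndc80 and Cks2, each with a higher estimate in Δβ3. Luminal sums also differed between hβ3 and Δβ3, at 1472 to 2054 and 3334 to 3620 CPM in DMSO. In docetaxel they were 2212 to 2587 and 3535 to 3656 CPM, and Rn45s took 11.1% to 19.2% and 6.92% to 7.82% of counts. With Rn45s and the muscle markers removed, hβ3 against Δβ3 still gave 10 calls in DMSO and 5 in docetaxel. The part of the luminal markers in these comparisons was not tested.

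Other genes of the same processes were taken from lists. Of 66 other mitotic genes, 58 were tested, and 21 fell and 6 rose in the mean response, with a median of -0.13. Over all tested genes 14.3% fell and 15.7% rose. Ncapg2, a condensin II subunit, changed by -0.56 ± 0.04 (adjusted p = 2.95e-10) and Gsg2, the histone kinase haspin, by -0.50 ± 0.05 (adjusted p = 4.19e-08). Ncapd3, also of condensin II, was at -0.36 ± 0.05 and Plk1, the mitotic polo-like kinase, at -0.26 ± 0.07 (adjusted p = 0.0046). Ckap2, a spindle protein, rose by 0.42 ± 0.05 (adjusted p = 1.46e-07).

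Of 40 listed replication and S phase genes, 33 were tested, 27 fell and 0 rose, against 14.3% and 15.7% of all genes. Their median was -0.53. Mcm2 and Mcm3, 2 parts of the helicase that opens DNA for copying, changed by -0.66 ± 0.04 and -0.67 ± 0.04 (adjusted p = 1.22e-12 for both). Rrm2, of the enzyme that makes deoxynucleotides, was at -0.68 ± 0.05 and Ccne1, cyclin E1, at -0.82 ± 0.06 (adjusted p = 2.3e-11 and 2.69e-11). The response of 12 of the 33 differed between hβ3 and pMx, each with a higher value in hβ3, against 1.25% of all genes. In either direction 2.3% of all genes were called. The median change of the 33 was -0.28 in hβ3 and -0.71 in pMx. These 12 calls were not repeated with the other settings or sets of libraries. Of the 40 mitotic genes edgeR called 0 higher in hβ3 in that comparison, and DESeq2, edgeR without the filter and edgeR with the replicate block each called 1, Cdk1. The difference between the 2 lists was not tested.

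Among 25 regulators of mitotic gene transcription, 20 were tested, and 4 rose and 9 fell, against 15.7% and 14.3% of all genes. The number that rose was near that share. Btg2, an antiproliferative p53 target, rose by 1.66 ± 0.07 (adjusted p = 6.53e-15) and Cdkn1a, which encodes p21, by 1.09 ± 0.16 (adjusted p = 8.15e-06). Rb1, the retinoblastoma gene, rose by 0.81 ± 0.06 (adjusted p = 1.25e-10). E2f4, a factor of the DREAM complex, changed by -0.50 ± 0.05 and E2f3, an activating E2F, by -0.73 ± 0.09 (adjusted p = 2.51e-08 and 6.9e-07).

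**Figure D5:**
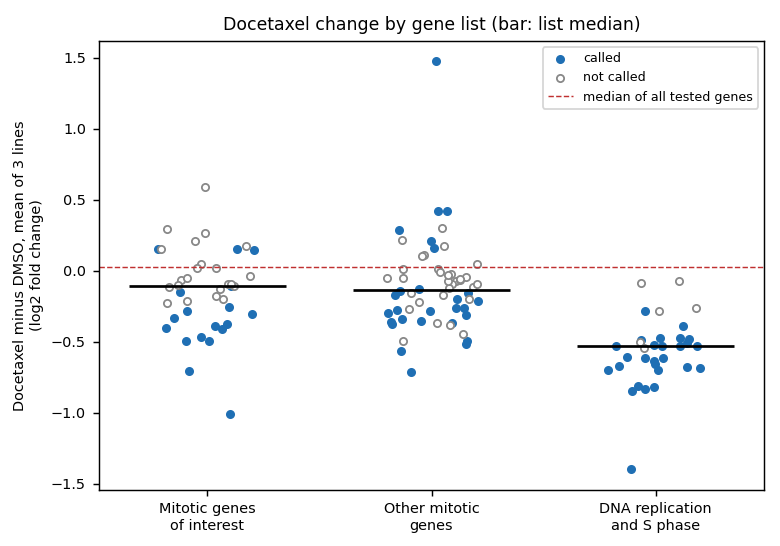
Docetaxel minus DMSO as the mean of 3 lines (log2 fold change) for the 40 tested mitotic genes, 58 other mitotic genes and 33 replication and S phase genes, with filled points for an adjusted p under 0.05, a bar at each list's median and a dashed line at the median of all tested genes (0.02). The medians are -0.11, -0.13 and -0.53.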

How the data were processed

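The deposited table holds raw read counts per transcript model for 18 cultures and the model length in bases, which the deposited table gives and which no value uses. Per the submitters' processing notes it was made with FastQC, HISAT2 and featureCounts on mm10. Which versions and annotation were used, whether strand counted and how shared reads were treated was not stated in the labels. Antisense and overlapping genes cannot be told apart. Counts were summed over models with the same symbol, 63759 models for 32765 symbols, 13159 of them with several models. Genes were kept by filterByExpr on the 6 groups, scaled by TMM and tested by edgeR 4.0.16 (R 4.3.3) with the robust quasi-likelihood F-test, 1 coefficient per group over 16 libraries, two-sided, with calls made below 0.05 after Benjamini-Hochberg adjustment across every tested gene. There were 13 comparisons. The biological coefficient of variation was 13.2% with 16 libraries and 36.0% with all 18. Changes are log2 fold changes ± SE, and 95% intervals come from that SE by a normal approximation. Levels are CPM, counts scaled by TMM library size, except marker sums and Itgb3, which use raw totals.

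The genes, the lists and the choice of libraries were set with earlier results of these data known. Values in every culture are given for up to 3 called genes per role with the smallest p in the mean response and for Cdk1, Ccnb1, Mki67, Foxm1 and Mybl2, and full statistics for the 3 with the smallest p in other comparisons. Anln, Kif11, Kif4, Cdc20 and the other genes printed with values were chosen after their values were seen. From each other list up to 4 genes with the smallest p are named, with Plk1 and Cdkn1a. A condition added for the printed promoters is that both motifs lie before any annotated start. Alternatives were 17 and 18 libraries, DESeq2 1.42.0, relative log expression size factors, no filter, removal of Rn45s and muscle markers, the top model per symbol, a replicate block and leaving out each library. The scripts were tested on simulated data. RefSeq promoters of GRCm38.p6 were matched by symbol. Replicates of a group differed by more than counting error. Among the 16 libraries hβ3 DMSO culture 2 differed most, with a chi-square per degree of freedom of 161 and 259.4 against its group. Other pairs within a group had 4.10 to 38.4. Rn45s took 10.9% of the counts of this culture, against 27.5% and 33.0% in its group, and it was kept in the tests.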

Additional observations from a re-analysis of the deposited data

Results flagged for a closer look

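For 2 of 40 genes the docetaxel response differed between hβ3 and pMx by the test of the difference itself, against 2.3% of all genes. Both calls were lost with 17 and with 18 libraries, and without any 1 of several single libraries, as given above. The Cenpf response in hβ3 minus that in pMx was -0.45 on the log2 scale (edgeR, adjusted p = 0.0187), rising in pMx (0.31) and not passing in hβ3 (-0.14). For Mki67 it was -0.51 (adjusted p = 0.0333), with 0.09 in pMx, where it did not pass, and -0.42 in hβ3. Both genes were higher in hβ3 than in pMx in DMSO, by 0.28 and 0.61. In docetaxel the differences were -0.17 and 0.10, and neither passed. These values share the same cultures.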

How the results depend on the processing

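With all 18 libraries the number of called genes was 10 for the mean docetaxel response (18 with 16 libraries), 1 in pMx (14), 3 in Δβ3 (11), 1 in hβ3 (9), 0 for the response difference between hβ3 and pMx (2), 1 and 2 for hβ3 against pMx and Δβ3 in DMSO (10 and 10), and 1 and 2 in docetaxel (10 and 5). With 17 libraries, Δβ3 docetaxel culture 2 left out, the counts were 6 in pMx, 4 in Δβ3, 3 in hβ3, 0 for that response difference, and 4 and 3 for hβ3 against pMx and Δβ3 in docetaxel. The response difference between hβ3 and Δβ3 gave 1 call with DESeq2 and 1 without the filter. Every other change of tool, scaling, filter or model choice stayed within 1.5 times the count.

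Leaving out 1 library gave 14 to 19 calls in the mean response, 10 to 16 in pMx, 5 to 12 in Δβ3, 8 to 10 in hβ3, 0 to 4 for hβ3 minus pMx in response, 0 to 1 for hβ3 minus Δβ3, 8 to 11 and 7 to 12 for hβ3 against pMx and Δβ3 in DMSO, 7 to 11 and 4 to 9 in docetaxel, and 0 for Δβ3 against pMx throughout. Where it leaves 1 culture in a group, that culture is assumed to vary like the others. The mean change of Ccnb1 ran from -0.19 without Δβ3 docetaxel culture 1 to 0.02, a reversed sign, without Δβ3 docetaxel culture 3, against -0.07 with 16 libraries. The cause was not tested.

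Whether cultures with the same replicate number belong together is not stated in the labels, and the correlations below cannot exclude it. Same-numbered deviations correlated at -0.26 to 0.34 over 35 pairs, 5 of them over 0.1, and 9 of 16 libraries correlated best with their own number. With the number as a replicate block the counts were 19, 15, 10 and 10 for the mean response, pMx, Δβ3 and hβ3, 3 for hβ3 minus pMx in response, 0 for the other response differences, 11 and 12 for hβ3 against pMx and Δβ3 in DMSO and 11 and 5 in docetaxel, and 0 for Δβ3 against pMx. Low counts limit the 12 tested genes under 5 CPM, none of which was called in the mean response.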
